A study of Mus musculus with 282 samples.

Results

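The genes described here are 38 genes of fatty acid oxidation and its control by PPAR alpha, out of 15907 gene symbols measured in mouse liver. They were taken from a list of gene symbols grouped by known role: the regulators Ppara and Creb3l3, 4 genes of fatty acid uptake, binding and activation, 5 carnitine and CoA carriers, 13 genes of mitochondrial oxidation, 4 peroxisomal genes, 6 thioesterases and pantetheinase, 3 genes of omega and aldehyde oxidation, and Bdh1 of ketone body metabolism. Levels are in RPM, the reads of a gene per 1000000 reads of its library. All 38 had a mean of 1 RPM or more in both deposited tables and entered every test.

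The samples were 282 libraries from the lateral liver lobe of male C57BL/6J mice, in 16 arms. All mice were housed singly with 12 h of light and 12 h of dark, and were fed at night unless stated. Some arrhythmically fed WT arms were injected with AZD8055, which blocks the kinase site of mTOR, at dawn or at dusk. Other WT arms were uninjected under arrhythmic, ad libitum or night feeding, or under night feeding received rapamycin, an inhibitor of mTOR complex 1 (mTORC1), or its vehicle. Night-fed mice with a whole-body Bmal1 knockout (BMKO), lacking a core clock transcription factor, were uninjected or received rapamycin or vehicle. Night-fed mice with a liver knockout of Tsc1 (TSKO), an inhibitor of mTORC1, or of Raptor (RPKO), a subunit of mTORC1, were set against mice carrying Albumin-Cre, which is active in hepatocytes, so other liver cells of the knockouts keep the gene. These 13 arms had 3 libraries at each of zeitgeber time (ZT, hours after lights on) 2, 6, 10, 14, 18 and 22, which gives 18 per arm. The other 3 arms, all WT, received tunicamycin, which blocks N-glycosylation and causes stress of the endoplasmic reticulum: arrhythmic feeding with AZD8055 at dusk, arrhythmic feeding, and night feeding, with 4 libraries at each of ZT 4, 10, 16 and 22, which gives 16 per arm. The sources used here give no ages or doses. The AZD8055 arms have no vehicle arm, so injection and drug cannot be told apart there.

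Liver burns fatty acids when food is short. Fatty acids are taken up and bound (Cd36, Fabp1), joined to CoA (Acsl1, Slc27a2), and passed into mitochondria as carnitine esters by Cpt1a, Slc25a20 and Cpt2, with Cpt1a as the committed step. Mitochondria shorten them by repeated rounds of a dehydrogenase, a hydratase, a second dehydrogenase and a thiolase, peroxisomes shorten the very long ones, and part of the resulting acetyl-CoA leaves the liver as ketone bodies. PPAR alpha is a nuclear receptor activated by fatty acids and is the main inducer of these genes in fasting. It binds as a dimer with RXR to direct repeats of AGGTCA spaced by 1 base, and Creb3l3 is a liver transcription factor that acts with it. mTORC1, which is active after feeding, is known to repress PPAR alpha activity in mouse liver.

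In the tunicamycin arms depth ran between 4.85 and 10.1 M reads per library, with a median of 7.71 M. It ran between 0.706 and 14.3 M reads, with a median of 8.51 M, in the 13 other arms. In 3 libraries it was under 3 M: BMKO uninjected ZT 6 replicate 1, BMKO uninjected ZT 22 replicate 3 and WT rapamycin ZT 22 replicate 1. Tsc1 was lower in TSKO than in Albumin-Cre liver by a log2 difference of -0.99 ± 0.08 (SE), and Rptor in RPKO by -0.80 ± 0.10. Arntl, the gene of Bmal1, differed by 0.37 ± 0.18 (adjusted p = 0.0555) between BMKO and WT liver without injection and by 1.42 ± 0.18 (adjusted p = 3.76e-10) with vehicle. Its reads come from the 3' end and the sources used here do not name the deleted exons, so these values do not check the knockout. Summed RPM of 8 hepatocyte markers had a lowest, median and highest library of 34467, 56326 and 67492 in uninjected BMKO, against 75239, 86686 and 95034 in uninjected WT liver. The summed levels did not overlap, but marker by marker 2 of the 8 were higher and 2 lower, with a median log2 difference of 0.04. The lower sum thus does not stand for the list as a whole. In bulk liver fewer cells of a type and less RNA per cell cannot be told apart. Adipocyte and T and B cell markers were too low to be tested in any arm. Of the last 500 bases of the transcript, shared 50-base words made up 48.8% in Etfb (with Gm45233), 38.8% in Acaa1b (with Acaa1a), 9.76% in Eci2 (with Eci3), 6.43% in Eci1 (mostly with Mdm2), 5.99% in Cyp4a10 (with Cyp4a31), 1.11% in Acot4 and 0.443% in Acot2. Reads of these genes could be split by the counting, so their values are uncertain.

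The first question was which of the genes follow the day. A gene was called rhythmic in an arm when a 24 h cosine and sine, fitted with limma to log2(RPM + 0.5), passed an adjusted p of 0.05, and its amplitude is the distance from the fitted mean to the fitted peak in log2 units. In uninjected night-fed WT liver 16 of the 38 genes were rhythmic, beside 21.8% of all genes tested. By role these were both regulators, 2 of 4 uptake, binding and activation genes, 3 of 5 carriers, 2 of 4 peroxisomal genes, 5 of 6 thioesterases and pantetheinase, 1 of 3 omega and aldehyde oxidation genes and Bdh1, and 0 of the 13 genes of mitochondrial oxidation. Of the 16 peaks 14 fell between ZT 8 and ZT 16, with a median of ZT 12.1. Acot3, a peroxisomal acyl-CoA thioesterase, had an amplitude of 1.40 ± 0.24 (SE) with a peak at ZT 13.2. Its neighbour Acot4, of the same family, reached 0.82 ± 0.12 at ZT 12.96, and the cytosolic Acot1 0.67 ± 0.10 at ZT 17.8. Cpt1a had 0.94 ± 0.07 at ZT 10.2, Ppara 0.82 ± 0.12 at ZT 9.10, and Pex11a, which drives peroxisome division, 0.73 ± 0.08 at ZT 12.9.

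Across the 16 arms Cpt1a was rhythmic in 16, the peroxisomal isomerase Eci2 in 13, Acot4 and the acyl-CoA synthetase Acsl1 in 12, and Ppara and Pex11a in 11. In no arm did Acadl, Acadm, Acadvl, Acads, Hadha, Hadhb, Eci1, Etfa, Etfb or Etfdh of mitochondrial oxidation, Slc25a42 or Cd36 pass the test. Ehhadh, the peroxisomal bifunctional enzyme, passed in 1 arm. The number of rhythmic genes was 7 of 38 with AZD8055 at dawn (21% of all genes), 19 with AZD8055 at dusk (19.5%), 5 under arrhythmic feeding without it (7.95%) and 11 under ad libitum feeding (16.5%). It was 8 in uninjected BMKO (5.61%), 1 in BMKO with rapamycin (0.274%), 8 in BMKO with vehicle (5.49%), 4 in WT with rapamycin (5.12%) and 11 in WT with vehicle (14.9%). It was 15 in TSKO (24.4%), 12 in RPKO (17.6%) and 10 in Albumin-Cre (23.3%), and with tunicamycin 14 after dusk AZD8055 (21.2%), 8 under arrhythmic (7.52%) and 17 under night feeding (15%). Each arm was tested alone, so these counts do not compare arms, and they moved when a replicate number was left out.

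Acot3 had the largest amplitude of the rhythmic genes in 9 of the 16 arms. Besides uninjected night-fed WT liver it was first in WT with rapamycin at 1.53 ± 0.33, in WT with vehicle at 1.64 ± 0.20, in TSKO at 1.498 ± 0.23, in Albumin-Cre at 1.36 ± 0.22 and under ad libitum feeding at 1.63 ± 0.18. The other 3 were arrhythmic feeding at 1.02 ± 0.16 and, with tunicamycin, dusk AZD8055 at 1.54 ± 0.24 and night feeding at 1.78 ± 0.19. In the 3 BMKO arms, in RPKO, after dawn AZD8055 and under arrhythmic feeding with tunicamycin Acot3 did not pass the test. Its fitted amplitude in RPKO was still 1.17 ± 0.37. In the BMKO arms the largest amplitudes belonged to Pex11a without injection (0.72 ± 0.06), Cpt1a with rapamycin (0.55 ± 0.09) and Crat with vehicle (0.78 ± 0.13). Crat moves acetyl groups between CoA and carnitine. In RPKO the largest was that of Ppara (0.78 ± 0.08).

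**Figure D1:**
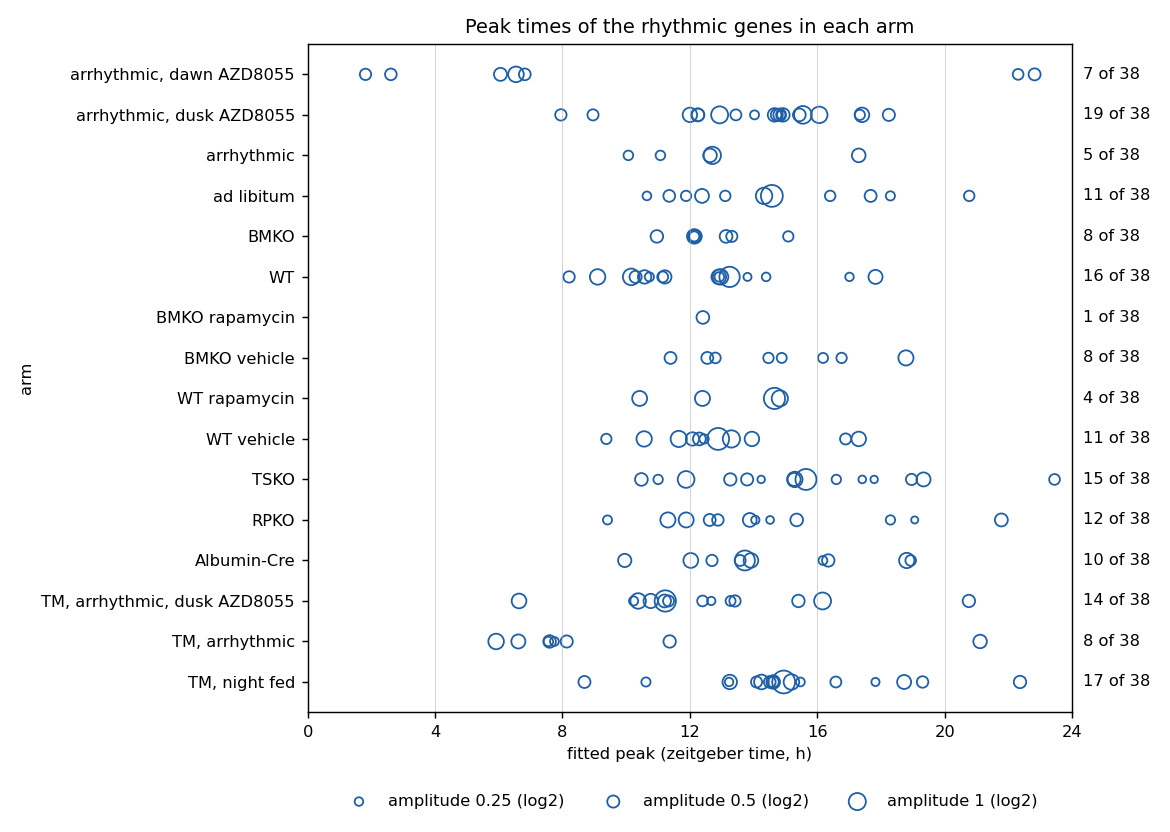
Fitted peak time (x axis, zeitgeber time in h) of each gene called rhythmic in each of the 16 arms (y axis), with circle area in proportion to the log2 amplitude and the number of rhythmic genes of 38 at the right. Peaks of night-fed arms crowd around the light to dark change. Those with AZD8055 at dawn lie from ZT 22.3 across ZT 0 to ZT 6.82. Those with AZD8055 at dusk have a median of ZT 14.7.

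The feeding arms ask how far these genes depend on when food is eaten. Under arrhythmic feeding WT liver had a flatter Cpt1a course than under night feeding. Daily means of Cpt1a, Ppara, Creb3l3, Acads and Acadm were among those higher, and those of Decr1, Hadhb, Slc25a42 and Acot1 were lower. The call of Ppara was lost without replicate 3, and the median difference of the listed genes was near that of all genes. Cpt1a at ZT 10 had 191, 193 and 221 RPM under arrhythmic feeding, 216, 208 and 205 RPM under ad libitum feeding and 238, 226 and 263 RPM under night feeding. At ZT 22 it had 123, 123 and 143 RPM, 84.8, 93.9 and 130.4 RPM and 65.2, 83.3 and 73.1 RPM in the same order. All 3 arrhythmic libraries were below the 3 night-fed ones at ZT 10 and above them at ZT 22. The amplitude of Cpt1a was 0.31 ± 0.06 under arrhythmic and 0.94 ± 0.06 under night feeding (adjusted p of the rhythm difference = 1.54e-05), and 0.66 ± 0.06 under ad libitum feeding with a peak at ZT 12.4, against ZT 10.2 under night feeding (adjusted p = 0.00129). The ad libitum difference lost its call without replicate 1 or without replicate 2.

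Acot12, the cytosolic enzyme that splits acetyl-CoA, was the other gene with a smaller amplitude under arrhythmic feeding, 0.23 ± 0.07, against 0.61 ± 0.07 under night feeding (adjusted p = 0.039). Its call was lost whichever replicate number was left out, with adjusted p of 0.105 to 0.466. In all, 2 of 38 genes had a smaller amplitude under arrhythmic feeding, beside 4.32% of all genes, and 1 of 38 under ad libitum feeding, beside 0.838%. Both feeding comparisons share the night-fed libraries.

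**Figure D2:**
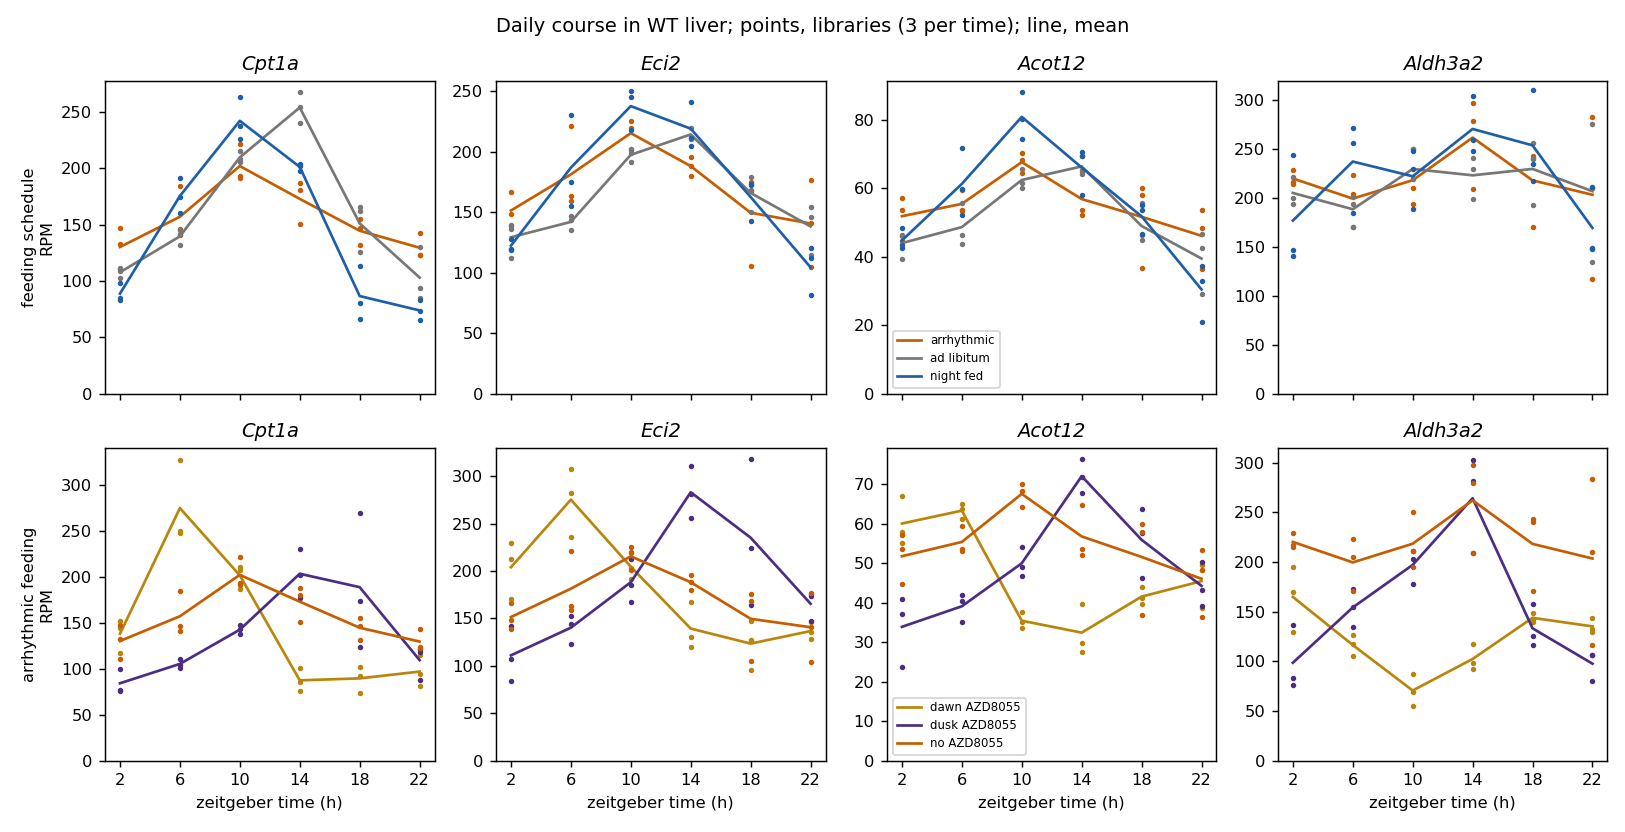
RPM (y axis, from 0) of Cpt1a, Eci2, Acot12 and Aldh3a2 against zeitgeber time in h in WT liver, by feeding schedule (top) and, under arrhythmic feeding, by AZD8055 (bottom). Points are libraries, 3 per time, and lines join their means. In the Cpt1a panels the arrhythmic line is the flattest of the feeding schedules, and the dawn line peaks early while the dusk line peaks late.

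The daily mean weights all times equally, and its differences are log2 differences ± SE. Under arrhythmic feeding 11 of 38 genes were higher and 4 lower than under night feeding, beside 23.9% and 20.1% of all genes, and the median difference was 0.03 for these genes and 0.02 for all genes. Both regulators were higher. Ppara had a lowest, median and highest library of 70.5, 137 and 211 RPM under arrhythmic and 38.01, 86.02 and 241 RPM under night feeding, a difference of 0.44 ± 0.11 (adjusted p = 0.00105). Creb3l3 differed by 0.35 ± 0.06 (adjusted p = 1.03e-05). Cpt1a had 110.2, 147 and 221 RPM, against 65.2, 137 and 263 RPM under night feeding, a difference of 0.24 ± 0.06 (adjusted p = 0.000811). Of the acyl-CoA dehydrogenases, the short-chain Acads had 90.2, 140.1 and 217 RPM, against 39.9, 79.8 and 104 RPM (0.86 ± 0.10, adjusted p = 3.96e-09), and the medium-chain Acadm rose by 0.52 ± 0.10 (adjusted p = 9.15e-05). The mitochondrial thioesterase Acot2 rose by 0.72 ± 0.15 (adjusted p = 0.000162), whereas Decr1, needed for unsaturated fatty acids, differed by -0.42 ± 0.07 (adjusted p = 6.6e-06) and Hadhb, a subunit of the trifunctional protein, by -0.31 ± 0.08 (adjusted p = 0.00147). The libraries of both groups overlapped for each of the 15 genes called. The call of Ppara was lost without replicate 3. Ehhadh, at 7.83, 17.2 and 89.1 RPM under arrhythmic and 4.09, 8.35 and 50.9 RPM under night feeding, differed by 0.84 ± 0.29 (adjusted p = 0.0156) and lost its call without replicate 2.

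The calls of Cpt1a, Creb3l3, Acads, Acadm, Acot2 and Decr1 held under all alternatives run. Of 60 other genes of the pathway that were tested, 20 were higher and 12 lower. The sterol and fatty acyl carrier Scp2 differed by 0.42 ± 0.05 (adjusted p = 1.92e-09), the peroxisomal bifunctional enzyme Hsd17b4 by 0.46 ± 0.06 (adjusted p = 1.64e-08) and the uncoupling protein Ucp2 by -0.84 ± 0.11 (adjusted p = 1.87e-08). Of the markers, 2 of 4 periportal hepatocyte ones were higher and 0 lower, 4 of 9 endothelial ones were lower and 2 higher, and 3 of 6 stellate ones lower. Summed periportal levels were 1256, 1628 and 2041 RPM under arrhythmic and 971, 1263 and 2125 RPM under night feeding. Summed endothelial levels were 316, 369 and 416 RPM under arrhythmic and 303, 372 and 442 RPM under night feeding, and their part in the result was not tested.

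Under ad libitum feeding 13 of 38 genes were higher and 7 lower than under night feeding, beside 28.5% and 24.5% of all genes. The median difference was -0.00 for these genes and 0.02 for all genes. Acads had 126, 165 and 209.95 RPM under ad libitum and 39.9, 79.8 and 104 RPM under night feeding (1.09 ± 0.10, adjusted p = 3.93e-12). All 18 ad libitum libraries were above the 18 night-fed ones. Ppara had 102, 161 and 296 RPM, against 38.01, 86.02 and 241 RPM (0.77 ± 0.11, adjusted p = 1.26e-07), and Creb3l3 differed by 0.57 ± 0.06 (adjusted p = 1.98e-10). Cpt1a differed by 0.23 ± 0.06 (adjusted p = 0.00125), Bdh1, which makes 3-hydroxybutyrate, by 0.39 ± 0.09 (adjusted p = 0.00025), Acadm by 0.45 ± 0.10 (adjusted p = 0.00038) and Ehhadh by 0.70 ± 0.29 (adjusted p = 0.0375). Lower were the omega-hydroxylase Cyp4a14 (-0.91 ± 0.17, adjusted p = 1.48e-05), Acot1 (-0.58 ± 0.12, adjusted p = 6.77e-05) and Decr1 (-0.37 ± 0.07, adjusted p = 3.48e-05). Apart from Acads the groups overlapped. The calls of Ppara, Cpt1a, Acot4, Acot1, Acads, Acadm, Cyp4a14, Bdh1, Decr1 and Creb3l3 held under all alternatives. Among the other 60 pathway genes 23 were higher and 15 lower, such as the fatty acid transport protein Slc27a5 (-0.53 ± 0.05, adjusted p = 3.73e-11), Scp2 (0.40 ± 0.05, adjusted p = 2.43e-09) and the CoA diphosphatase Nudt19 (-0.52 ± 0.07, adjusted p = 9.82e-09). Periportal markers were higher in 2 of 4, endothelial ones higher in 2 and lower in 3 of 9, hepatocyte markers lower in 3 of 8 and stellate ones in 3 of 6, with summed hepatocyte levels of 73508, 83198 and 96583 RPM under ad libitum and 75239, 86686 and 95034 RPM under night feeding, and their part in the result was not tested.

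**Figure D3:**
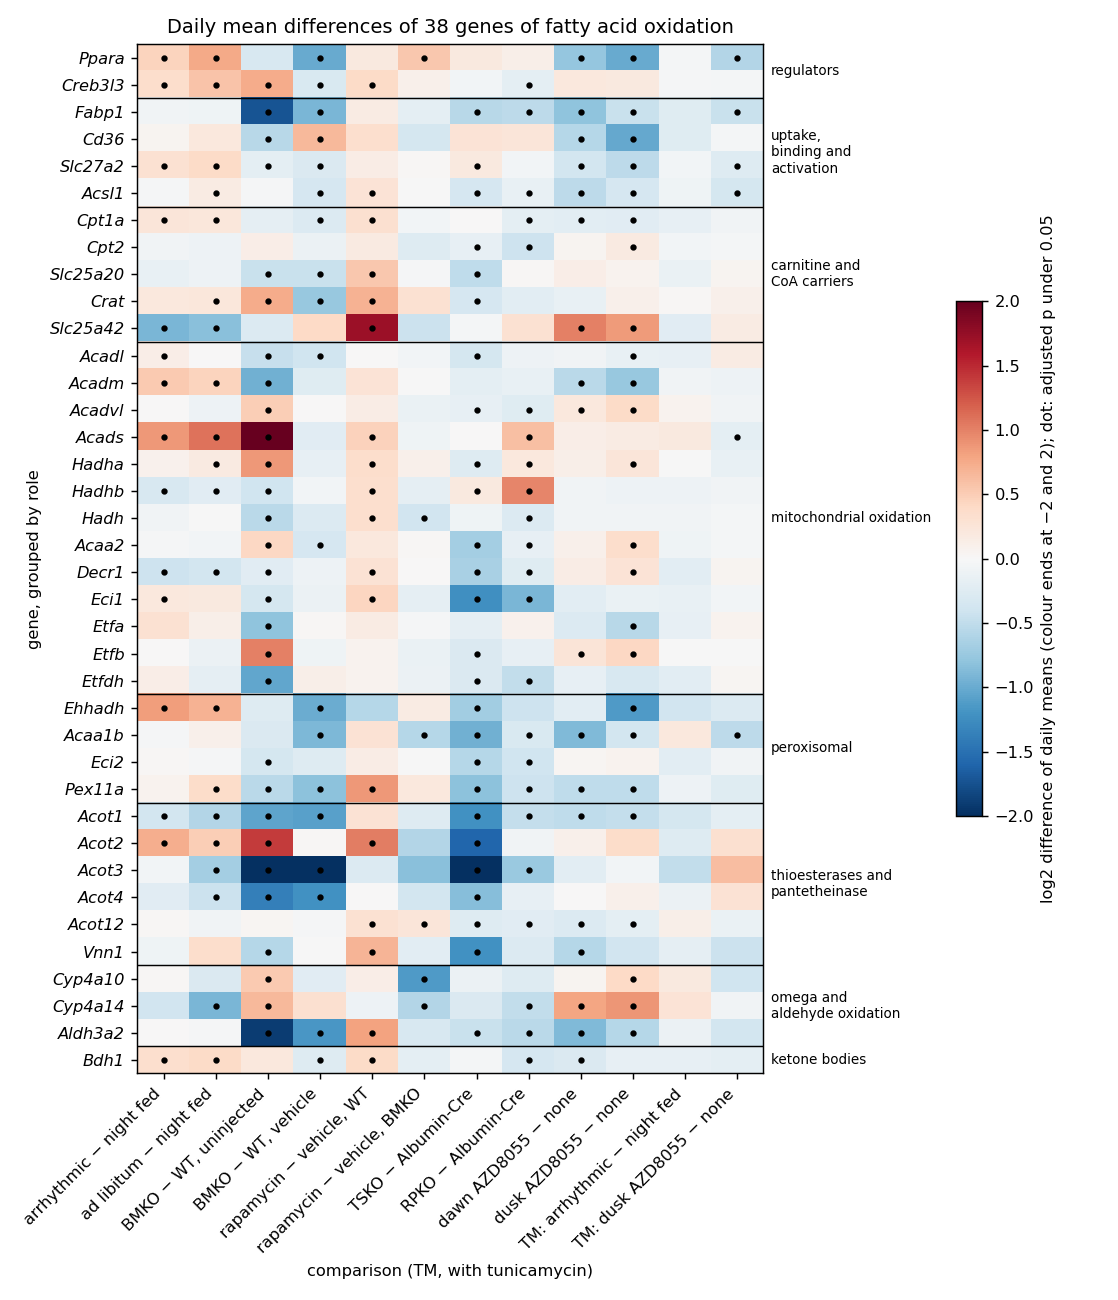
Log2 difference of daily means (colour, ends at -2 and 2) of the 38 genes (rows, grouped by role) in 12 comparisons (columns), with a dot where the adjusted p was under 0.05. Columns that share a control arm are not independent. The rows of Acot1, Acot3 and Acot4 are blue in the BMKO and TSKO columns, and the WT rapamycin column holds 18 dots, all in red cells.

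The BMKO arms ask what the genes do without Bmal1. Uninjected BMKO liver had much less of the fatty acid binding protein Fabp1, of the fatty aldehyde dehydrogenase Aldh3a2 and of the thioesterases Acot1, Acot3 and Acot4 than WT liver, and more of Acads, Etfb and Hadha. In all, 19 of 38 genes were lower and 10 higher, beside 37.4% and 34.3% of all genes. The median difference was -0.28 for the 38 genes and -0.06 for all genes.

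The promoters of Fabp1, Aldh3a2 and Acot4 are printed because these genes fell in both BMKO comparisons and their windows hold the motifs searched. Each is the 250 bases before the RefSeq start site on the gene's strand, 5' to 3', on GRCm38.p6. In capitals are AGGNCANAGGNCA, a direct repeat of the kind PPAR alpha binds, in Fabp1, CACGTG, an E-box of the kind BMAL1 binds with its partner CLOCK, in Acot4 and Aldh3a2, and AGGTCA in Acot4, all searched on both strands.
Fabp1 (chr6:71199629-71199878, plus strand): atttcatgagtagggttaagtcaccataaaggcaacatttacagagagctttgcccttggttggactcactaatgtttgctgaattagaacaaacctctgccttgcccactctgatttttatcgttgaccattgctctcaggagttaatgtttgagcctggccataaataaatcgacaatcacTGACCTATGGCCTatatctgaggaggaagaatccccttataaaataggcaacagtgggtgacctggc
Acot4 (chr12:84038129-84038378, plus strand): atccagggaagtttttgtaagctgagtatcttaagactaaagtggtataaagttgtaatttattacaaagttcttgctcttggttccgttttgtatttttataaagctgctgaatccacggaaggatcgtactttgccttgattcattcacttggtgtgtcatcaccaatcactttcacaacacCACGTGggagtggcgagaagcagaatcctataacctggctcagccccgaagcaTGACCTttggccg
Aldh3a2 (chr11:61267187-61267436, minus strand): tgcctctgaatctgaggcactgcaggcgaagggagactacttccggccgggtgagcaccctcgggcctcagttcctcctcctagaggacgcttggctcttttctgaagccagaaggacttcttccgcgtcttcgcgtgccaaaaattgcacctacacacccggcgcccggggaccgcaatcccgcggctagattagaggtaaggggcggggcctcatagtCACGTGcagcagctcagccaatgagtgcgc

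The table of promoters, which run to 50 bases after the start, held 32 of the 38 genes. AGGNCANAGGNCA was found in 1 of the 32, Fabp1, and in 0.381% of all 32851 windows, starting at base -67 and reading on the minus strand. AGGTCA was in 10 of 32 and in 16.3% of all windows, and a further copy in Fabp1 lies at -9. A gene was counted if any of its windows held the motif, and some genes have several windows. Counts of genes and shares of windows are therefore unlike measures. CACGTG was in 2 of 32, Acot4 at -66 and Aldh3a2 at -30, and in 7.15% of all windows. For the same reason these values do not show whether it was more common here. A match is a description of the letters, and binding was not measured. GENCODE places the 5' end of Aldh3a2 upstream of the RefSeq start, so that its printed window and E-box lie inside the GENCODE gene, and the GENCODE gene of Fabp1 begins inside its window.

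Fabp1 (chromosome 6, 71199827 to 71205023, GENCODE on GRCm38) had 616, 2107 and 3689 RPM in uninjected BMKO, against 4073, 6894 and 10939 RPM in WT liver, a difference of -1.73 ± 0.16 (adjusted p = 1.2e-16). Aldh3a2 (chromosome 11, 61223417 to 61267464) had 36.2, 53.4 and 94.9 RPM, against 141, 232 and 310.2 RPM (-1.89 ± 0.14, adjusted p = 4.58e-20). For both, every BMKO library was below every WT library. Acot4 (chromosome 12, 84038379 to 84048601) had 18.7, 29.2 and 48.9 RPM, against 33.8, 78.2 and 166 RPM (-1.37 ± 0.13, adjusted p = 3.95e-15), with overlapping groups. Acot3, next to it on chromosome 12 (84052144 to 84060402), had 0, 3.57 and 10.7 RPM, against 4.41, 40.2 and 109.5 RPM. One BMKO library was at 0, so its fitted difference of -3.09 ± 0.30 (adjusted p = 4.04e-15) depends on the pseudocount of 0.5.

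The 10 genes that were higher were Acads, Acadvl, Hadha, Acaa2, Etfb, Acot2, Crat, Cyp4a10, Cyp4a14 and Creb3l3. Acads had 236, 319 and 589.8 RPM in BMKO, against 39.9, 79.8 and 104 RPM in WT liver (2.10 ± 0.15, adjusted p = 5.8e-22). Etfb, a subunit of the flavoprotein that takes electrons from the dehydrogenases, had 540.4, 639 and 928 RPM, against 255, 318 and 431 RPM (1.01 ± 0.10, adjusted p = 1.51e-15), and Hadha, the other trifunctional subunit, 283, 359 and 615 RPM, against 156, 205 and 265 RPM (0.87 ± 0.10, adjusted p = 3.8e-12). The groups did not overlap for these 3 genes. Creb3l3 differed by 0.75 ± 0.09 (adjusted p = 8.48e-12). Within mitochondrial oxidation 5 genes were higher and 8 lower, and partners went opposite ways: Etfa differed by -0.80 ± 0.19 (adjusted p = 0.000103) and Hadhb by -0.40 ± 0.10 (adjusted p = 0.000367). Ppara (-0.32 ± 0.16, adjusted p = 0.0677), Cpt1a (-0.18 ± 0.09, adjusted p = 0.0847) and Ehhadh (-0.26 ± 0.27, adjusted p = 0.391) did not pass the test.

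Of the 29 calls, 24 held under all alternatives run, 16 of them lower and 8 higher. The 60 other pathway genes had 27 higher and 20 lower. The nuclear receptor Ppard differed by 2.31 ± 0.12 (adjusted p = 2.69e-28), its dimer partner Rxrb by 1.42 ± 0.11 (adjusted p = 5.82e-20) and the omega-hydroxylase Cyp4a31 by 2.62 ± 0.19 (adjusted p = 1.19e-20). The summed hepatocyte markers given above did not overlap either, with 2 of the 8 higher and 2 lower, and stellate markers were higher in 2 and lower in 3 of 6. Kupffer cell markers were lower in 7 and higher in 2 of 11, with summed levels of 129, 225 and 456 RPM in BMKO, against 138, 276 and 444 RPM in WT, and endothelial markers lower in 6 and higher in 2 of 9, with summed endothelial levels of 219, 277 and 344 RPM in BMKO, against 303, 372 and 442 RPM in WT. Their part in the result was not tested.

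With vehicle fewer of the 38 genes were higher in BMKO than without injection, and about as many were lower. BMKO liver had 18 of 38 genes lower and 1 higher than WT liver, beside 11.8% and 9.96% of all genes, and the median difference was -0.26 for the 38 genes and -0.00 for all genes. Acot3 had 1.08, 5.28 and 17.4 RPM in BMKO, against 9.08, 36.8 and 223 RPM in WT liver (-2.88 ± 0.30, adjusted p = 6.73e-13). Acot4 had 20.7, 29.9 and 52.2 RPM, against 33.4, 57.1 and 199.6 RPM (-1.20 ± 0.13, adjusted p = 5.61e-12), and Aldh3a2 37.9, 73.9 and 95.4 RPM, against 82.95, 167 and 296 RPM (-1.17 ± 0.14, adjusted p = 2.32e-10). BMKO values were the lower ones for all 3 genes, and the ranges overlapped. Pex11a differed by -0.81 ± 0.11 (adjusted p = 1.94e-09), Acot1 by -1.09 ± 0.16 (adjusted p = 3.38e-08), Crat by -0.76 ± 0.11 (adjusted p = 1.15e-07) and Acaa1b, a peroxisomal thiolase, by -0.90 ± 0.15 (adjusted p = 8.23e-07). Fabp1 had 2203, 3666 and 5783 RPM, against 4574, 6669 and 11052 RPM (-0.92 ± 0.16, adjusted p = 1.84e-06). Here Ppara had 28.2, 64.7 and 128 RPM in BMKO, against 47.8, 147 and 305 RPM in WT liver (-1.01 ± 0.16, adjusted p = 5.48e-07), Cpt1a differed by -0.27 ± 0.09 (adjusted p = 0.0273) and Ehhadh by -0.98 ± 0.27 (adjusted p = 0.00366). Cd36, which takes up fatty acids, was the gene that was higher (0.65 ± 0.16, adjusted p = 0.00103).

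Of the vehicle calls 9 held under all alternatives, all lower: Ppara, Pex11a, Acot1, Acot3, Acot4, Acaa1b, Aldh3a2, Crat and Fabp1. With the deposited scaling, 93.5% of all calls were higher in BMKO, in place of 45.8%, the median of all genes was 0.31, and of the 38 genes 9 were higher and 10 lower. The sign of Cpt1a, Acaa2, Bdh1, Acsl1, Creb3l3 and Slc27a2 then turned. Of the 60 other pathway genes 7 were higher and 17 lower, among them Ppard (1.28 ± 0.12, adjusted p = 2.49e-14), Acaa1a (-0.88 ± 0.09, adjusted p = 6.52e-14) and Cyp4a31 (1.77 ± 0.19, adjusted p = 3.28e-12). Summed hepatocyte markers were 37609, 51607 and 75305 RPM in BMKO with vehicle, against 71379, 86508 and 117738 RPM in WT with vehicle, with overlap, and 1 of the 8 was higher and 2 lower. Endothelial markers were higher in 1 and lower in 3 of 9, with summed levels of 267, 321 and 389 RPM in BMKO, against 326, 367 and 468 RPM in WT. Both cholangiocyte markers tested were higher in BMKO with vehicle, with summed levels of 39.3, 54.7 and 73.9 RPM, against 12.7, 29.04 and 86.5 RPM in WT with vehicle, and their part in the result was not tested.

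The amplitude of Acot4 was smaller in BMKO in both comparisons, 0.10 ± 0.13 in uninjected BMKO, against 0.82 ± 0.13 in uninjected WT (adjusted p = 0.00566), and 0.18 ± 0.13 in BMKO with vehicle, against 1.02 ± 0.13 in WT with vehicle (adjusted p = 0.00183). Cpt1a was smaller without injection, 0.57 ± 0.09 in BMKO, against 0.94 ± 0.09 in WT (adjusted p = 0.0324), and Acot3 with vehicle, 0.35 ± 0.30 in BMKO, against 1.64 ± 0.30 in WT (adjusted p = 0.0465). That makes 2 of 38 in each comparison, beside 2.12% and 1.43% of all genes with a smaller amplitude. None of these 4 calls held under all alternatives: that of Acot4 was lost without replicate 2 in both, and each of the others without replicate 1 and without replicate 2.

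The effect of the knockout differed between vehicle and uninjected livers in 21 of 38 genes, 13 lower and 8 higher with vehicle, beside 28.4% and 28.7% of all genes. Acads had a BMKO effect of -0.23 ± 0.15 with vehicle and 2.10 ± 0.15 without injection, a difference of -2.33 ± 0.21 (adjusted p = 8.41e-16). The change in Crat was of opposite sign, -0.76 ± 0.11 with vehicle and 0.75 ± 0.11 without (difference -1.50 ± 0.16, adjusted p = 1.23e-12). Hadha (-1.03 ± 0.14, adjusted p = 4.07e-09), Etfb (-1.10 ± 0.14, adjusted p = 1.41e-10) and Creb3l3 (-1.05 ± 0.13, adjusted p = 5.08e-11) also had lower effects with vehicle, and Cd36 a higher one (1.20 ± 0.22, adjusted p = 4.72e-06). Of the 21 calls 10 held under all alternatives, and with the deposited scaling the median of all genes was 0.43, with 18 of the 38 genes higher and 7 lower. The effect on markers differed too: it was higher with vehicle for 6 and lower for 2 of 9 endothelial markers, higher for both neutrophil markers, higher for 3 and lower for 1 of 6 stellate markers, higher for 2 and lower for 2 of 11 Kupffer markers, and higher for 1 and lower for 2 of 8 hepatocyte markers. Summed endothelial levels were those given above for these arms, and summed neutrophil levels were 0.814, 3.09 and 25.9 RPM in BMKO, against 0.917, 2.40 and 3.80 RPM in WT with vehicle, and 0, 1.07 and 3.10 RPM in BMKO, against 0.841, 2.14 and 4.24 RPM in WT without injection. The part of these markers in the result was not tested. Injection and any batch of these 4 arms cannot be told apart.

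**Figure D4:**
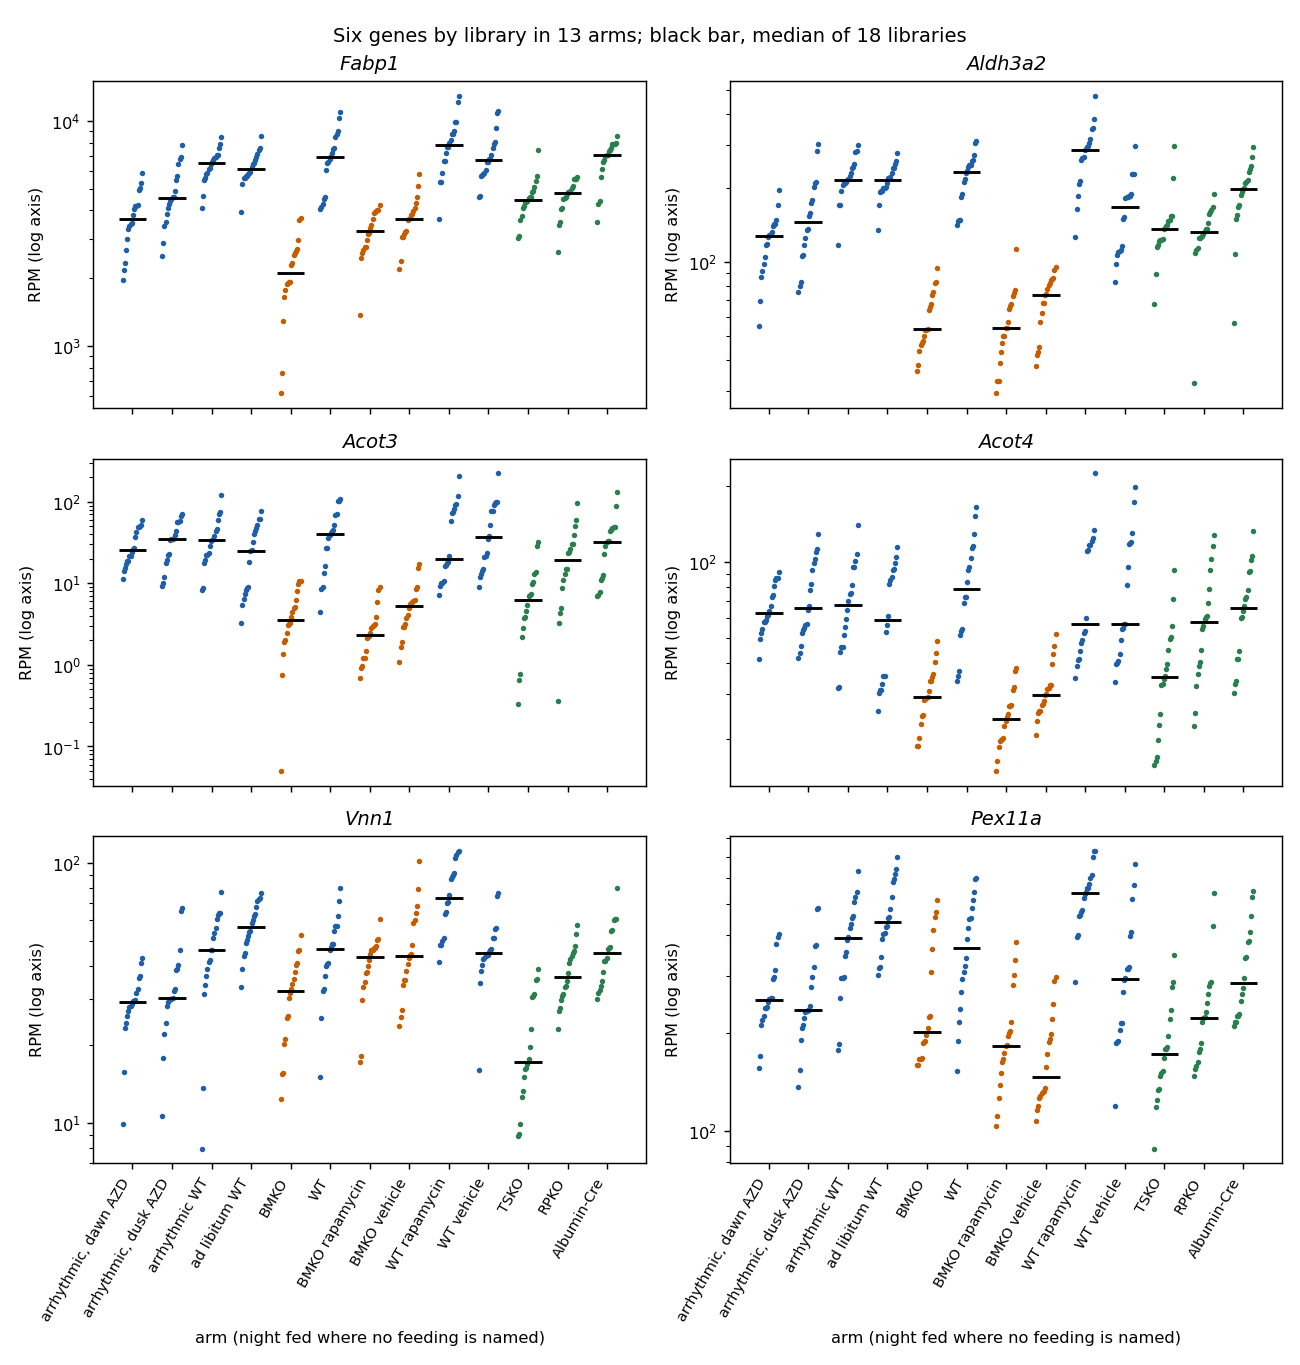
RPM on a log axis of Fabp1, Aldh3a2, Acot3, Acot4, Vnn1 and Pex11a in each library of 13 arms (x axis), with a black bar at the median of 18 libraries and the single 0 of Acot3 drawn at 0.05. BMKO arms are orange, liver knockouts with Albumin-Cre green and other arms blue. The orange bars of Aldh3a2, Acot3 and Acot4 lie below the bars of night-fed WT arms, and the bar of Vnn1 is lowest in TSKO.

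Rapamycin in night-fed WT liver asks what these genes do when mTORC1 is inhibited. It went with 18 of 38 genes higher than with vehicle and 0 lower, beside 9.8% and 8.72% of all genes, with a median difference of 0.29 for these genes and -0.00 for all genes. They included 4 of the 5 carriers and 6 of the 13 mitochondrial genes. Pex11a had 288, 541 and 728 RPM with rapamycin, against 119, 294 and 666 RPM with vehicle, a difference of 0.86 ± 0.11 (adjusted p = 5.4e-09). Crat had 18.3, 28.9 and 49.1 RPM, against 10.8, 18.4 and 28.2 RPM (0.69 ± 0.11, adjusted p = 5.4e-06), and Aldh3a2 127, 286 and 472 RPM, against 82.95, 167 and 296 RPM (0.81 ± 0.14, adjusted p = 2.32e-05). Rapamycin values were shifted upward in these genes and the ranges overlapped. Slc25a42, the mitochondrial CoA carrier, had 14.7, 26.9 and 36.8 RPM, against 0.275, 7.54 and 25.6 RPM (1.70 ± 0.35, adjusted p = 0.000257), with the vehicle libraries spread widely. The carnitine carrier Slc25a20 rose by 0.54 ± 0.10 (adjusted p = 2.45e-05), Acot2 by 1.02 ± 0.22 (adjusted p = 0.000399), the pantetheinase Vnn1 by 0.68 ± 0.15 (adjusted p = 0.000802), Creb3l3 by 0.38 ± 0.09 (adjusted p = 0.00103) and Cpt1a by 0.32 ± 0.09 (adjusted p = 0.0129). Ppara (0.20 ± 0.16, adjusted p = 0.397) and Ehhadh (-0.56 ± 0.27, adjusted p = 0.129) did not pass.

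The calls of Pex11a, Slc25a42, Aldh3a2 and Crat held under all alternatives. Without replicate 3 the count was 5 of 38, and with a correlation estimated between libraries of 1 arm that share a replicate number it was also 5. Another 18 of the 60 pathway genes outside the list were higher and 4 lower, among them the dehydrogenase Acadsb (-0.50 ± 0.08, adjusted p = 1.32e-06) and the coactivator Ppargc1a (-0.87 ± 0.14, adjusted p = 6.21e-06), both lower. All 4 pericentral hepatocyte markers, 5 of 9 endothelial, both neutrophil and 3 of 8 hepatocyte markers were lower with rapamycin, and 0 of these lists' genes higher. Summed hepatocyte levels were 46413, 66625 and 80279.9 RPM with rapamycin, against 71379, 86508 and 117738 RPM with vehicle. Neutrophil sums were 0, 0.760 and 4.56 RPM with rapamycin, against 0.917, 2.40 and 3.80 RPM with vehicle, and endothelial sums 266, 322 and 388 RPM, against 326, 367 and 468 RPM. Summed pericentral levels were 966, 1330.0 and 1665 RPM with rapamycin, against 1320.1, 1847 and 2642 RPM with vehicle. Their part in the result was not tested. No gene of the table had a called rhythm difference with rapamycin in WT liver by limma, and 0 by edgeR, while 2 of the 38 had an unadjusted p under 0.05.

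In BMKO liver rapamycin went with 2 of 38 genes higher and 4 lower than vehicle, beside 6.32% and 5.57% of all genes, and the median difference was -0.13 for these genes and -0.01 for all genes. Cyp4a10, an omega-hydroxylase and a classical PPAR alpha target, had 119, 383 and 989 RPM with rapamycin, against 249, 726 and 1579.7 RPM with vehicle (-1.13 ± 0.20, adjusted p = 3.16e-05). The ranges overlapped, and this was the call that held under all alternatives. Cyp4a31, which shares 3' sequence with it, also differed (-1.56 ± 0.19, adjusted p = 7.34e-09). Acaa1b (-0.57 ± 0.15, adjusted p = 0.0049), Cyp4a14 (-0.58 ± 0.17, adjusted p = 0.013) and Hadh, a hydroxyacyl-CoA dehydrogenase (-0.38 ± 0.11, adjusted p = 0.0192), were lower. Ppara had 51.8, 88.4 and 155 RPM, against 28.2, 64.7 and 128 RPM (0.54 ± 0.16, adjusted p = 0.0175), and Acot12 rose by 0.24 ± 0.08 (adjusted p = 0.041). Cpt1a (-0.05 ± 0.09, adjusted p = 0.801) and Ehhadh (0.17 ± 0.27, adjusted p = 0.739) did not pass. Of the 60 other pathway genes 3 were higher and 10 lower, among them Cyp4a12a (-2.07 ± 0.25, adjusted p = 3.35e-09), the ketone body enzyme Bdh2 (-0.78 ± 0.13, adjusted p = 5.93e-06) and the PPAR alpha coactivator Lpin1 (0.96 ± 0.21, adjusted p = 0.000879). Pericentral markers were lower in 3 of 4 and periportal ones in 2 of 4. Summed pericentral levels were 1176, 1532 and 1941 RPM with rapamycin, against 1718, 2067 and 2501 RPM with vehicle, and their part in the result was not tested. No rhythm difference was called in the 38 genes by limma, and 0 by edgeR, beside 0.29% of all genes, and 3 had an unadjusted p under 0.05.

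The rapamycin effect itself was compared between genotypes. It was lower in BMKO than in WT liver for 14 of 38 genes and higher for 0, beside 6.42% and 7.83% of all genes, with a median of -0.39 for these genes and -0.02 for all genes. Slc25a42 had a rapamycin effect of -0.43 ± 0.35 in BMKO and 1.70 ± 0.35 in WT, a difference of -2.14 ± 0.50 (adjusted p = 0.00254). Acot2 had -0.58 ± 0.22 in BMKO and 1.02 ± 0.22 in WT (-1.60 ± 0.31, adjusted p = 0.000542), and Aldh3a2 -0.32 ± 0.14 in BMKO and 0.81 ± 0.14 in WT (-1.12 ± 0.20, adjusted p = 0.000285). Cyp4a10 (-1.26 ± 0.28, adjusted p = 0.00196), Acaa1b (-0.87 ± 0.21, adjusted p = 0.00316), Hadh (-0.72 ± 0.16, adjusted p = 0.00196), Pex11a (-0.65 ± 0.15, adjusted p = 0.00242) and Eci1 (-0.62 ± 0.15, adjusted p = 0.00316) followed, while Ppara (0.34 ± 0.23, adjusted p = 0.317), Cpt1a (-0.36 ± 0.13, adjusted p = 0.0546) and Ehhadh (0.73 ± 0.38, adjusted p = 0.179) did not pass. The rapamycin effect on markers was higher in BMKO for 2 of 6 stellate, 1 of 9 endothelial and 1 of 4 pericentral markers and lower for 1 of 8 hepatocyte markers, and their part was not tested. None of the 14 held under all alternatives: with the correlation between libraries sharing a replicate number 0 remained, and without 1 replicate number 7 to 12.

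**Figure D5:**
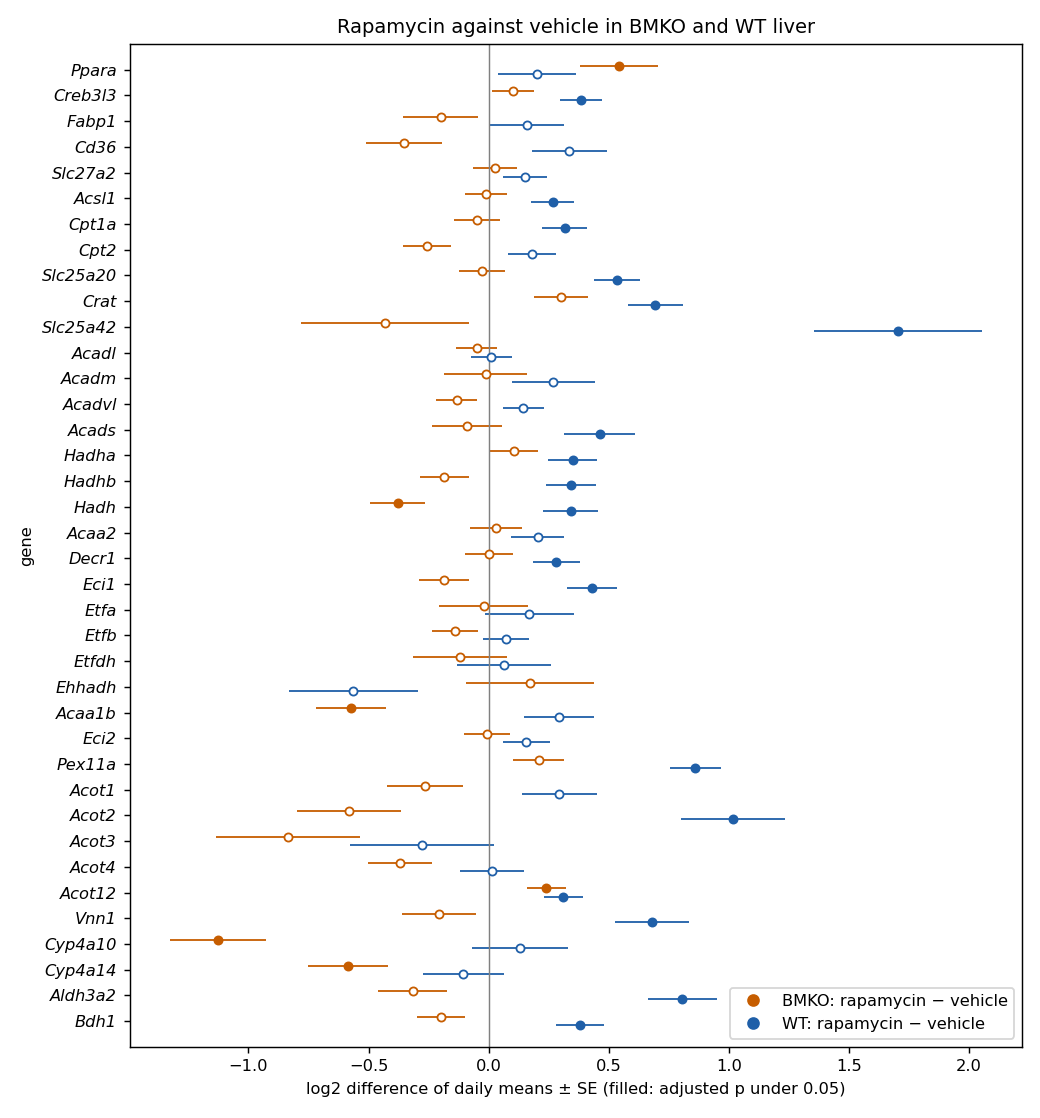
Log2 difference of daily means ± SE (x axis) between rapamycin and vehicle for the 38 genes (rows), in BMKO liver (orange) and WT liver (blue), filled where the adjusted p was under 0.05. The blue point lies right of 0 in 35 rows and right of the orange point of its row in 36.

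The liver knockouts ask the same question by genotype, since loss of Tsc1 is known to raise mTORC1 activity and loss of Raptor to abolish it. In TSKO liver 24 of 38 genes were lower and 2 higher than in Albumin-Cre liver, beside 18% and 18.6% of all genes, with a median difference of -0.29 for these genes and -0.01 for all genes. All 6 thioesterases and pantetheinase and all 4 peroxisomal genes were among those lower. Eci1, the mitochondrial isomerase for unsaturated fatty acids, had 62.2, 101 and 138 RPM in TSKO, against 161, 231 and 277 RPM in Albumin-Cre liver (-1.23 ± 0.07, adjusted p = 1.91e-18). The mitochondrial thiolase Acaa2 had 441, 559 and 669.5 RPM, against 682, 872 and 1345 RPM (-0.68 ± 0.05, adjusted p = 1.85e-13). Every TSKO library was below every Albumin-Cre library for both. Decr1 differed by -0.65 ± 0.06 (adjusted p = 5.6e-12).

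Among the thioesterases Acot2 had 4.60, 8.21 and 22.9 RPM in TSKO, against 18.8, 30.05 and 55.3 RPM in Albumin-Cre liver (-1.59 ± 0.15, adjusted p = 1.41e-11), and Acot1 16.5, 28.2 and 77.5 RPM, against 31.9, 75.2 and 133 RPM (-1.21 ± 0.14, adjusted p = 1.44e-09). Vnn1, which frees cysteamine and pantothenate, had 8.90, 17.2 and 39.05 RPM, against 29.8, 44.8 and 80.05 RPM (-1.22 ± 0.17, adjusted p = 1.68e-07). The TSKO ranges lay lower and overlapped those of Albumin-Cre. Of the peroxisomal genes Acaa1b differed by -0.96 ± 0.10 (adjusted p = 2.25e-10), Pex11a by -0.82 ± 0.09 (adjusted p = 3.51e-10), Eci2 by -0.57 ± 0.06 (adjusted p = 7.51e-11) and Ehhadh by -0.70 ± 0.25 (adjusted p = 0.0224), the last lost without replicate 1 or 2. Ppara (0.19 ± 0.08, adjusted p = 0.0525) and Cpt1a (0.00 ± 0.06, adjusted p = 0.976) did not pass. Of the TSKO calls 16 held under all alternatives, all lower. The 60 other pathway genes had 12 higher and 18 lower, among them the peroxisomal transporter Abcd3 (-0.78 ± 0.07, adjusted p = 5.78e-12), the enoyl-CoA hydratase Echs1 (-0.54 ± 0.05, adjusted p = 7.44e-12), Cyp4a12a (1.30 ± 0.14, adjusted p = 3.13e-10) and Phyh of alpha-oxidation (-0.54 ± 0.06, adjusted p = 7.22e-10). Stellate cell markers were lower in 3 of 6 and Kupffer cell markers in 2 of 11, while endothelial markers were higher in 2 and lower in 1 of 9 and 1 of 2 cholangiocyte markers higher. Summed stellate levels were 229, 267 and 333 RPM in TSKO, against 270.3, 292 and 362 RPM in Albumin-Cre liver, and their part in the result was not tested.

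RPKO liver also had more genes lower than higher, 20 and 3 of 38, beside 23.1% and 19.3% of all genes, with a median difference of -0.22 for these genes and -0.01 for all genes. It shares the Albumin-Cre libraries with the TSKO comparison. Hadhb had 47.9, 65.3 and 84.3 RPM in RPKO, against 16.9, 34.2 and 39.1 RPM in Albumin-Cre liver (0.98 ± 0.07, adjusted p = 2.8e-16), with every RPKO library above. Eci1 had 96.1, 121 and 141 RPM, against 161, 231 and 277 RPM (-0.91 ± 0.07, adjusted p = 4.94e-15), with every RPKO library below. Fabp1 had 2609.5, 4775 and 5643 RPM, against 3566, 7059 and 8604 RPM (-0.53 ± 0.10, adjusted p = 3.43e-05), with overlap. Eci2 differed by -0.41 ± 0.06 (adjusted p = 1.05e-07), Cpt2 of the inner mitochondrial membrane by -0.41 ± 0.06 (adjusted p = 1.29e-07), Pex11a by -0.42 ± 0.09 (adjusted p = 9.76e-05), Bdh1 by -0.33 ± 0.07 (adjusted p = 0.000141) and Cpt1a by -0.20 ± 0.06 (adjusted p = 0.00827), while Acads rose by 0.61 ± 0.12 (adjusted p = 3.83e-05). Ppara (0.12 ± 0.08, adjusted p = 0.221) and Ehhadh (-0.42 ± 0.25, adjusted p = 0.175) did not pass.

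Of the RPKO calls 11 held under all alternatives, 9 lower and 2 higher. With the deposited scaling 12.1% of all calls were higher in RPKO, in place of 45.5%, the median of all genes was -0.23, and 30 of the 38 genes were lower and 2 higher. The sign of Hadha then turned. Of the 60 other pathway genes 8 were higher and 21 lower, among them Abcd3 (-0.69 ± 0.07, adjusted p = 6.49e-11), Ucp2 (1.09 ± 0.11, adjusted p = 7.44e-11), the coactivator Med1 (-0.35 ± 0.05, adjusted p = 1.68e-08) and Acox3 (-0.49 ± 0.07, adjusted p = 1.83e-07). Of the hepatocyte markers 3 of 8 were higher and 3 lower, with summed levels of 46519, 75263 and 86952 RPM in RPKO, against 70775, 83883 and 94701 RPM in Albumin-Cre liver. Pericentral markers were higher in 2 of 4, with summed levels of 1669, 2290.4 and 2949.6 RPM in RPKO, against 1503, 1848 and 2254 RPM in Albumin-Cre liver, and endothelial ones were higher in 1 and lower in 3 of 9. Kupffer cell markers were higher in 4 of 11 and lower in 0, with summed levels of 242, 331 and 415 RPM in RPKO, against 203, 259.6 and 449 RPM in Albumin-Cre liver, and their part in the result was not tested. In neither liver knockout did any of the 38 genes have a called rhythm difference from Albumin-Cre by limma or edgeR, beside 0.00815% of all genes in TSKO and 0% in RPKO, and 0 and 2 had an unadjusted p under 0.05. The amplitude of Cpt1a was 0.95 ± 0.06 in TSKO, 0.77 ± 0.06 in RPKO and 0.75 ± 0.06 in Albumin-Cre liver.

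AZD8055 was given at dawn or at dusk to mice fed arrhythmically, which asks whether timed inhibition of mTOR sets the time of these genes. The rhythm differed between dusk and dawn AZD8055 in 18 of 38 genes, beside 41.7% of all genes. Cpt1a at ZT 6 had 100.4, 111 and 104 RPM after dusk AZD8055, 327, 249 and 247 RPM after dawn AZD8055 and 185, 140.5 and 146 RPM without it. At ZT 14 it had 202, 177 and 230.4 RPM after dusk, 85.99, 75.9 and 100.3 RPM after dawn and 180.3, 151 and 187 RPM without AZD8055. The dusk and dawn libraries did not overlap at either time, and they changed places. The fitted peak of Cpt1a was ZT 14.7 after dusk, with an amplitude of 0.63 ± 0.07, against ZT 6.54 and 0.83 ± 0.07 after dawn (adjusted p of the rhythm difference = 2.83e-12).

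Eci2 peaked at ZT 14.9 after dusk and ZT 6.05 after dawn (adjusted p = 2.48e-09), and Creb3l3 at ZT 17.3 and ZT 6.82 (adjusted p = 1.06e-05). Other genes peaked late in the night or early in the day after dawn AZD8055. Aldh3a2 at ZT 10 had 202, 211 and 178 RPM after dusk, 55.3, 87.4 and 69.3 RPM after dawn and 211, 249.99 and 194 RPM without AZD8055. The 3 dawn libraries were the lowest. Its peak was ZT 12.001 after dusk and ZT 22.8 after dawn (adjusted p = 2.27e-09), that of Acot12 ZT 14.7 and ZT 2.61 (adjusted p = 1.08e-09) and that of Fabp1 ZT 12.3 and ZT 1.82 (adjusted p = 8.49e-07). Of the 18 genes 7 were rhythmic in both arms when each was tested alone. Counted the shorter way round the day, the dusk and dawn peaks of these 7 genes lay 4 to 12 h apart. By that count Cpt1a, Eci2, Creb3l3 and Fabp1 were later after dusk AZD8055, and Acot12, Acsl1 and Aldh3a2 earlier. Near 12 h the same shift can be read as later or earlier, as for Acot12 at ZT 14.7 and ZT 2.61. The split therefore does not show that these genes moved in opposite directions. The other 11 did not pass in the dawn arm, so their dawn peak times are not given. The calls that held under all alternatives were those of Cpt1a, Acot12, Eci2, Acot1, Aldh3a2, Hadh, Acsl1, Creb3l3 and Fabp1. Time since injection and zeitgeber time cannot be told apart within an arm.

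Against arrhythmically fed mice without AZD8055, the rhythm differed in 6 of 38 genes after dawn, 5 of them with a larger amplitude, beside 12.1% of all genes with a larger and 2.59% with a smaller one. After dusk it differed in 5, all with a larger amplitude, beside 4.92%. Cpt1a had an amplitude of 0.83 ± 0.07 after dawn AZD8055, against 0.31 ± 0.07 without it (adjusted p = 4.16e-06), and 0.63 ± 0.07 after dusk (adjusted p = 0.00551). Acot12 had 0.46 ± 0.07 after dawn (adjusted p = 0.000132) and 0.49 ± 0.07 after dusk (adjusted p = 0.00578), against 0.23 ± 0.07 without. Eci2 (adjusted p = 0.00676), Aldh3a2 (0.0023), Acot4 (0.0366) and Acsl1 (0.0417) were the other dawn genes, and Eci2 (adjusted p = 0.00295), Aldh3a2 (0.00717) and Fabp1 (0.0222) the other dusk genes. The dawn calls of Cpt1a and Acot12 held under all alternatives, the other 4 were lost without replicate 1, and each of the 5 dusk calls was lost without replicate 2.

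Daily means after both injections are set against the same arm without AZD8055. After dawn AZD8055 14 of 38 genes were lower and 4 higher, beside 20% and 21% of all genes, with a median difference of -0.16 for these genes and 0.02 for all genes. All 4 genes of uptake, binding and activation were lower. Fabp1 had 1969, 3677 and 5848 RPM after dawn AZD8055, against 4104, 6487 and 8479.5 RPM without (-0.81 ± 0.09, adjusted p = 4.57e-09), and Aldh3a2 55.3, 128 and 195 RPM, against 117, 216 and 298 RPM (-0.88 ± 0.09, adjusted p = 2.09e-10). Ppara had 44.5, 68.8 and 297 RPM, against 70.5, 137 and 211 RPM (-0.78 ± 0.15, adjusted p = 4.11e-05). Treated libraries extended to lower values in these 3 genes, and the ranges overlapped. Acaa1b differed by -0.88 ± 0.13 (adjusted p = 9.26e-07), Acsl1 by -0.52 ± 0.09 (adjusted p = 1.05e-05), Acadm by -0.53 ± 0.13 (adjusted p = 0.00118) and Cpt1a by -0.20 ± 0.07 (adjusted p = 0.0246), while Cyp4a14 rose by 0.78 ± 0.12 (adjusted p = 2.18e-06) and Slc25a42 by 1.002 ± 0.23 (adjusted p = 0.000605). Ehhadh (-0.22 ± 0.40, adjusted p = 0.7) did not pass. Of the 18 dawn calls 10 held under all alternatives, 8 lower and 2 higher. With the deposited scaling 67.4% of all calls were higher, in place of 51.1%, and 7 of the 38 genes were higher and 12 lower. Of the 60 other pathway genes 10 were higher and 20 lower, among them Scp2 (-0.53 ± 0.05, adjusted p = 2.05e-10), Phyh (-0.64 ± 0.07, adjusted p = 4.1e-10), Cyp4a31 (1.47 ± 0.16, adjusted p = 1.07e-09) and the peroxisomal transporter Abcd2 (-1.23 ± 0.15, adjusted p = 2.59e-08).

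After dusk AZD8055 15 of 38 genes were lower and 9 higher, beside 23.8% and 27% of all genes, with a median difference of -0.12 for these genes and 0.02 for all genes. All 4 genes of uptake, binding and activation were lower again. Ppara had 33.99, 69.7 and 96.4 RPM after dusk AZD8055, against 70.5, 137 and 211 RPM without (-1.01 ± 0.15, adjusted p = 3.2e-07), and Cd36 9.66, 18.6 and 36.8 RPM, against 15.96, 37.4 and 65.6 RPM (-1.02 ± 0.18, adjusted p = 6.76e-06). Cyp4a14 had 1063, 2569.7 and 4808 RPM, against 709, 1346 and 1956 RPM (0.88 ± 0.12, adjusted p = 1.57e-07). Ppara and Cd36 were shifted down and Cyp4a14 up, with overlap in each. Aldh3a2 differed by -0.56 ± 0.09 (adjusted p = 1.3e-06), Acadm by -0.76 ± 0.13 (adjusted p = 6.96e-06), Slc27a2, a fatty acid transport protein, by -0.52 ± 0.09 (adjusted p = 1.23e-05), Cpt1a by -0.23 ± 0.07 (adjusted p = 0.00758) and Ehhadh by -1.13 ± 0.40 (adjusted p = 0.0176), while the very-long-chain dehydrogenase Acadvl rose by 0.39 ± 0.07 (adjusted p = 5.04e-06) and Etfb by 0.42 ± 0.07 (adjusted p = 5.27e-06). Of the 24 dusk calls 9 held under all alternatives, 6 lower and 3 higher. With the deposited scaling 63.5% of all calls were higher, in place of 53.1%, and 10 of the 38 genes were higher and 11 lower. The 60 other pathway genes had 15 higher and 19 lower, among them Scp2 (-0.49 ± 0.05, adjusted p = 7.38e-10), Cyp4a31 (1.36 ± 0.16, adjusted p = 3.82e-09), Phyh (-0.56 ± 0.07, adjusted p = 5.18e-09) and Abcd2 (-1.15 ± 0.15, adjusted p = 6.1e-08). Kupffer cell markers were higher in 4 of 11 after dawn and 6 of 11 after dusk AZD8055, and both neutrophil markers in each, while pericentral markers were lower in 2 of 4 and endothelial ones higher in 4 and lower in 3 of 9 in each. Summed pericentral levels were 1419, 1735 and 2443 RPM after dawn, 1079, 1793 and 2392 RPM after dusk and 1496, 1979.8 and 2623 RPM without AZD8055. Summed Kupffer levels were 234, 326 and 541 RPM after dawn, 234, 376 and 539.8 RPM after dusk and 223, 273 and 384 RPM without AZD8055, with summed neutrophil levels of 0.576, 3.88 and 112 RPM after dawn, 0.808, 3.84 and 127 RPM after dusk and 0.251, 1.55 and 3.996 RPM without. Their part in the results was not tested.

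Between the injection times 3 daily means were higher after dusk and 0 lower, beside 1.97% and 2.05% of all genes. Acaa1b (0.52 ± 0.13, adjusted p = 0.0218), Fabp1 (0.36 ± 0.09, adjusted p = 0.0228) and Aldh3a2 (0.31 ± 0.09, adjusted p = 0.0358) were higher after dusk than after dawn AZD8055. With the correlation between libraries that share a replicate number 0 of these 3 calls remained. Ppara (-0.23 ± 0.15, adjusted p = 0.372), Cpt1a (-0.03 ± 0.07, adjusted p = 0.852) and Ehhadh (-0.91 ± 0.40, adjusted p = 0.179) did not pass.

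The tunicamycin arms ask how feeding time and AZD8055 bear on these genes under stress of the endoplasmic reticulum. Their table was scaled apart from the first, so levels are compared within it. Under arrhythmic feeding the rhythm of 9 of 38 genes differed from that under night feeding, 8 with a smaller amplitude and Acadl with a larger one, beside 3.36% and 0.995% of all genes. Cpt1a at ZT 16 had 109, 104, 113 and 107 RPM under arrhythmic feeding, against 208, 259, 234 and 219 RPM under night feeding. At ZT 4 it had 138, 156, 138 and 128 RPM, against 100.5, 107, 104 and 62.6 RPM. The groups did not overlap at either time, with arrhythmic libraries below at ZT 16 and above at ZT 4. The amplitude of Cpt1a was 0.31 ± 0.06 with a peak at ZT 7.56 under arrhythmic feeding, against 0.74 ± 0.06 at ZT 14.2 under night feeding (adjusted p = 5.1e-08).

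Slc27a2 had an amplitude of 0.16 ± 0.06 under arrhythmic and 0.40 ± 0.06 under night feeding (adjusted p = 5.69e-05), and Eci2 0.27 ± 0.09 and 0.63 ± 0.09 (adjusted p = 0.000856). Eci2 peaked at ZT 7.75 under arrhythmic feeding, against ZT 14.6 under night feeding. Slc27a2 was not rhythmic under arrhythmic feeding when that arm was tested alone, so no peak is given for it there. Acot12 (adjusted p = 0.00368), Acot4 (0.00847) and Ppara (0.0107) followed, with amplitudes of 0.12 ± 0.07, 0.52 ± 0.10 and 0.50 ± 0.12 under arrhythmic feeding, against 0.47 ± 0.07, 0.82 ± 0.10 and 0.72 ± 0.12 under night feeding. The calls of Cpt1a, Eci2 and Slc27a2 held under all alternatives, that of Acot12 was lost without replicate 3, that of Acot4 without replicate 4 and that of Ppara without replicate 2, 3 or 4. Counted from ZT 0, the median peak of the rhythmic genes was ZT 7.67 under arrhythmic and ZT 14.6 under night feeding. The arrhythmic peaks ran from ZT 5.92 to ZT 21.1, as the plot of peak times shows.

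Daily means of the 38 genes showed no call between arrhythmic and night feeding with tunicamycin by limma, and 0 by edgeR, beside 0.245% of all genes higher and 0.31% lower. An unadjusted p under 0.05 was found in 7. Ppara differed by -0.04 ± 0.12 (adjusted p = 0.92), Cpt1a by -0.17 ± 0.06 (adjusted p = 0.224) and Ehhadh by -0.38 ± 0.23 (adjusted p = 0.499).

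With tunicamycin and arrhythmic feeding, dusk AZD8055 went with 6 of 38 genes lower and 0 higher, beside 4.66% and 4.19% of all genes, with a median difference of -0.07 for these genes and -0.01 for all genes. Ppara had a lowest, median and highest library of 20.5, 52.9 and 126 RPM with AZD8055, against 49.7, 83.1 and 164 RPM without (-0.58 ± 0.12, adjusted p = 0.00106). Acaa1b had 309.7, 837 and 1377 RPM, against 617, 1248 and 1671 RPM (-0.53 ± 0.12, adjusted p = 0.00233), and Slc27a2 155, 214 and 269 RPM, against 185, 259.7 and 317 RPM (-0.25 ± 0.06, adjusted p = 0.00337). The AZD8055 libraries reached lower in all 3 and the ranges overlapped. Acsl1 (-0.36 ± 0.08, adjusted p = 0.00461), Fabp1 (-0.44 ± 0.12, adjusted p = 0.0177) and Acads (-0.20 ± 0.07, adjusted p = 0.0443) were also lower, which makes 3 of the 4 genes of uptake, binding and activation, and Cpt1a (-0.07 ± 0.06, adjusted p = 0.52) and Ehhadh (-0.28 ± 0.23, adjusted p = 0.515) did not pass. The calls of Acaa1b and Slc27a2 held under all alternatives, and that of Ppara was lost without replicate 4. Of the 60 other pathway genes 1 was higher and 11 lower, among them Lpin1 (-1.08 ± 0.16, adjusted p = 1.16e-05), Cyp4a12a (-1.09 ± 0.20, adjusted p = 0.000178), Nudt19 (0.36 ± 0.08, adjusted p = 0.00131) and Acadsb (-0.31 ± 0.07, adjusted p = 0.00136). No rhythm difference was called among the 38 genes by limma or edgeR, beside 0.0326% of all genes, and 11 had an unadjusted p under 0.05. Both neutrophil markers were higher with AZD8055, with summed levels of 1.38, 7.98 and 23.8 RPM, against 0.358, 3.21 and 5.77 RPM without, and their part in the result was not tested.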

How the data were processed

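RNA from liver was made into QuantSeq 3' mRNA-Seq libraries, which count the 3' end of each transcript. Per the submitters' processing notes, STAR 2.7.3a and SAMtools were used with the build mm10, which is GRCm38.p6. The values deposited by the authors are a signal per gene: read counts divided by 1 factor per library. In each of 282 columns 100% of values came out as whole reads within 0.01 read, and these recovered counts gave the depth. In the RPKO columns 197 genes, none of the 38, followed a second step and were left out of fits with RPKO.

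Reads were scaled by TMM to reads per 1000000 (RPM), separately in the 2 tables, and genes with a mean of at least 1 were tested: 12413 in the first table, 12266 in fits with RPKO and 12261 in the second. The fit was limma 3.58.1 (trend) on log2(RPM + 0.5) in R 4.3.3, with a mean per arm and time and Benjamini-Hochberg adjustment over all genes tested. A daily mean difference weights times equally, and a rhythm difference is a joint test of the 24 h cosine and sine. Arms of a set were fitted together, and rhythmic genes in each arm alone. The labels name biological replicates. On simulated data 100% of 200 genes changed by a log2 difference of 1 in either direction were recovered, and 0.0663% of unchanged genes called. The simulated libraries were independent, and the genes of lowest level were not changed. These shares therefore do not give the power or error rate for smaller differences or for correlated libraries.

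The quasi-likelihood test of edgeR 4.0.16 on the recovered counts called 5364 genes for arrhythmic feeding, 6495 for ad libitum feeding, 9006 for BMKO without injection, 3059 for BMKO with vehicle, 1991 for rapamycin in WT and 1397 in BMKO, 4651 for TSKO, 5263 for RPKO, 5164 for dawn and 6259 for dusk AZD8055, and with tunicamycin 83 for feeding and 1059 for AZD8055. Other alternatives were DESeq2 size factors, the deposited scaling, a pseudocount of 2, no filter on low values, the replicate number as a block or as a correlation, and leaving out shallow libraries or each replicate number. The genes and lists, and the comparison of dusk with dawn AZD8055, were chosen with earlier results of these data known.

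Named in each comparison were Ppara, Cpt1a and Ehhadh, up to 8 called genes of smallest adjusted p for the daily mean, up to 6 for the rhythm, and up to 4 other pathway genes, of which some are not reported here. Vnn1 in TSKO and Fabp1 in BMKO with vehicle were added after their values were seen. The near identity of 3' ends was read from 50-base words shared between transcripts. No 2 libraries were near-copies.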

Additional observations from a re-analysis of the deposited data

Results flagged for a closer look

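Ppara, Cpt1a and Ehhadh were each checked in every group of 4 libraries with tunicamycin. In 5 of 36 checks a library lay far from the other 3, where chance gives about 1 in 20. The 3 genes were read in the same libraries, so the checks are not independent. Ppara under arrhythmic feeding at ZT 4 had 68.9 RPM in replicate 1, below the others, and under night feeding at ZT 10 it had 191 RPM in replicate 2, above the others. Cpt1a had 94.8 RPM in replicate 4 at ZT 4 with dusk AZD8055, and 62.6 RPM in replicate 4 at ZT 4 under night feeding, each below the others. Ehhadh under arrhythmic feeding had 14.3 RPM at ZT 10 in replicate 4, above the others.

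The rapamycin effect differed between BMKO and WT liver in 14 of the 38 genes by the test of the difference itself. The BMKO minus WT differences were -1.12 for Aldh3a2, -1.60 for Acot2, -1.26 for Cyp4a10, -0.72 for Hadh, -0.65 for Pex11a, -2.14 for Slc25a42, -0.87 for Acaa1b and -0.62 for Eci1 on the log2 scale.

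The BMKO effect differed between vehicle and uninjected livers in 21 of the 38 genes by the test of the difference. The differences, vehicle minus uninjected, were -2.33 for Acads, -1.50 for Crat, -1.05 for Creb3l3, -1.10 for Etfb, -1.03 for Hadha, 1.20 for Cd36, -0.74 for Acaa2 and -1.37 for Acot2.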

How the results depend on the processing

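Of 312 named daily mean or rhythm calls and values of single genes, all kept direction and side of the threshold with a pseudocount of 2. Same-direction losses of the call numbered 6 with DESeq2 size factors, 12 with edgeR, 8 without the filter, 17 with the deposited scaling and 84 with a correlation between libraries of 1 arm that share a replicate number, an alternative chosen after seeing the data. With the deposited scaling the difference in BMKO with vehicle turned to 0.069 for Cpt1a, 0.014 for Acaa2, 0.081 for Bdh1, 0.0087 for Acsl1, 0.043 for Creb3l3 and 0.061 for Slc27a2, that of Hadha in RPKO to -0.034, and the change of the BMKO effect with injection to 0.12 for Acsl1 and 0.33 for Cpt1a. Without the filter and by edgeR, 1 gene in place of 2 had a rhythm difference in BMKO with vehicle, and without libraries under 3 M reads 1 in place of 2 in BMKO without injection. Without ad libitum ZT 10 and ZT 14 replicate 3 the ad libitum count was 18. Without night-fed tunicamycin ZT 16 replicate 2, chosen after seeing the data, 2 of the 9 rhythm difference calls for feeding with tunicamycin were lost. The cause was not tested.

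Replicate numbers did not pair arms: deviations of libraries with the same number had a median correlation of 0.00575 over the 13 arms and 0.0198 over the tunicamycin arms. With the replicate block the count was 1 in place of 0 for rhythm differences with rapamycin in BMKO and with AZD8055 under tunicamycin, and 7 in place of 4 rhythmic genes in WT with rapamycin. Within an arm the same number had a median correlation of 0.481 in BMKO with vehicle and at most 0.244 in the others. With the estimated correlation 4 rhythm differences in place of 2 were called under arrhythmic feeding. Daily mean counts were 11 in place of 19 for BMKO with vehicle, 5 in place of 18 for rapamycin in WT, 1 in place of 6 for rapamycin in BMKO, 15 in place of 24 for dusk AZD8055, 0 in place of 3 for dusk against dawn AZD8055, 0 in place of 14 for the rapamycin effect between genotypes and 11 in place of 21 for the BMKO effect with injection. Rhythm counts were 1 in place of 0 for rapamycin in BMKO and for AZD8055 under tunicamycin, and 7 in place of 4 in WT with rapamycin.

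Leaving out each replicate number gave 8 to 16 daily mean calls for arrhythmic feeding, 13 to 17 for ad libitum feeding, 26 to 28 for BMKO without injection, 14 to 21 with vehicle, 5 to 20 for rapamycin in WT, 1 to 5 in BMKO, 18 to 25 for TSKO, 14 to 22 for RPKO, 13 to 19 for dawn and 13 to 22 for dusk AZD8055, and 0 to 1 between them. It gave 0 for feeding and 3 to 6 for AZD8055 with tunicamycin, 7 to 12 for the rapamycin effect and 12 to 21 for the BMKO effect. Rhythm difference counts were 1 to 2 for arrhythmic and 0 to 1 for ad libitum feeding, 0 to 1 for each BMKO comparison, 3 to 5 for dawn and 0 to 2 for dusk AZD8055, 10 to 13 between them and 4 to 7 for feeding with tunicamycin. Rhythmic genes numbered 10 in uninjected WT, 5 to 7 with vehicle, 1 to 7 with rapamycin, 1 to 6 in uninjected BMKO, 0 to 10 with vehicle and 0 with rapamycin. They numbered 4 to 7 with dawn and 9 to 12 with dusk AZD8055, 0 to 4 under arrhythmic and 4 to 12 under ad libitum feeding, 9 to 12 in TSKO, 4 to 11 in RPKO and 9 to 11 in Albumin-Cre, and with tunicamycin 7 to 16 with AZD8055, 2 to 8 under arrhythmic and 11 to 17 under night feeding. Genes with few reads, such as Acot3 in BMKO, are limited by depth.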

Other observations

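Acot2, the mitochondrial thioesterase, had medians of 182 to 212 RPM in the 3 tunicamycin arms and of 8.21 to 44.0 RPM in the 13 other arms. The tables were scaled apart and come from different mice, so no test was made between them.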
